A study of Macaca fascicularis with 4 samples.

Results

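The genes described here encode 10 proteins of the complement system in the cynomolgus monkey (Macaca fascicularis): C3, the terminal components C5, C6, C7, C8A, C8B and C9, the lectin pathway genes MBL2 and MASP1, and C4BPA, a chain of an inhibitor. They were taken by name from 13982 genes counted in 4 full-length RNA libraries, and all 10 names had counts. The libraries are liver, oWAT, sWAT and muscle, with 1 library per tissue, each made from RNA of 5 monkeys pooled before sequencing on the PacBio Sequel II, which reads whole cDNA molecules. The labels give the tissue and no age, sex or treatment. They leave the abbreviations oWAT and sWAT unexplained, and WAT is commonly used for white adipose tissue. The deposited fat data carry other abbreviations, eWAT for the sample labelled oWAT and iWAT for the sample labelled sWAT, and the labels were followed here. There are no replicates, so every interval covers counting error only and none covers the spread between animals.

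Complement is a cascade of plasma proteins that tags and lyses microbes and clears debris. C3 stands where the classical, lectin and alternative routes meet: its cleavage leaves C3b on a surface and leads to the cleavage of C5. The fragment C5b then binds C6, C7 and C8, and a ring of C9 completes the membrane attack complex. In the lectin route, mannose-binding lectin recognises sugars on microbes and the MASP proteases cut the next components. The liver is known as the main source of most of these plasma proteins, while fibroblasts, macrophages and adipocytes are known to make some of them locally. These roles are best known from human complement.

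The libraries held 437587 gene counts in liver, 396797 in oWAT, 383896 in sWAT and 439872 in muscle. Values are given as counts and as counts scaled to those totals (CPM). They are not divided by transcript length, so they are compared between libraries and not between genes. A count of 0 allows a level of up to 3 counts, which is 6.86 CPM in liver, 7.56 in oWAT, 7.81 in sWAT and 6.82 in muscle. The labelled tissues showed their own markers. All 10 hepatocyte markers had counts in liver, with a summed level of 168801 CPM, against 10.1 CPM in oWAT, 2.60 in sWAT and 2.27 in muscle. All 10 adipocyte markers had counts in oWAT, with a summed level of 15998 CPM, and in sWAT, with 18867 CPM. In muscle 9 of them had counts, with 1294 CPM, and in liver 6, with 114 CPM. All 10 myofibre markers had counts in muscle.

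The members separated into a group found almost wholly in liver and others with a larger share outside it. C3 was high in liver and in oWAT, MASP1 was spread more evenly, and C7 was highest in fat. A gene was called higher in a library where it had at least 10 counts there and the exact 95% interval of its fold, a ratio of CPM values, lay above 2. By that rule 9 of the 10 members stood higher in liver than in oWAT, in sWAT and in muscle, where 10.8% of all 4944 genes tested were called. C7 was the exception. The members were chosen with earlier results of these data known, so the comparison with all genes is a description. Each member also had 153 or more counts in liver, while the background takes in genes with as few as 10. The median log2 ratio of the 10 members was 8.02 over oWAT, 7.91 over sWAT and 9.60 over muscle, beside medians of -0.93, -0.72 and -0.50 for all genes tested. Those member medians rest in part on added fractions of a count, since 4 members had 0 counts outside liver. Their summed share was 2.26% of counts in liver (2.22 to 2.30, exact binomial 95% interval), 0.538% in oWAT (0.515 to 0.561), 0.119% in sWAT (0.108 to 0.130) and 0.0359% in muscle (0.0305 to 0.0420).

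**Figure D1:**
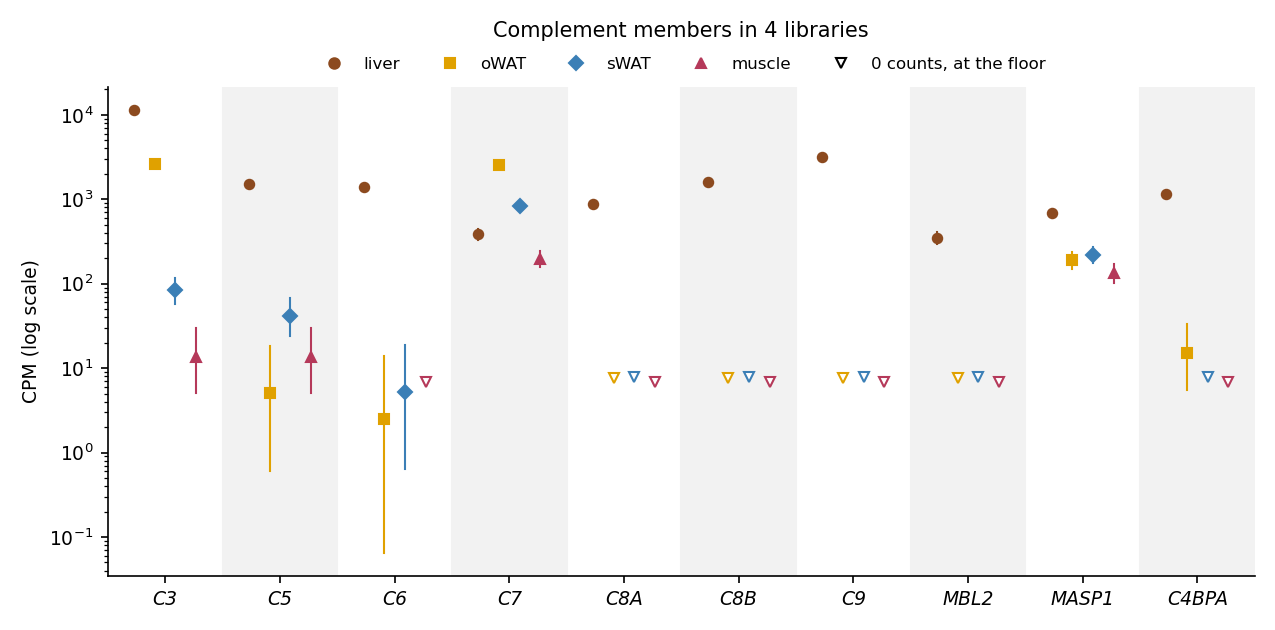
Level of each complement member in CPM (log scale) in the liver, oWAT, sWAT and muscle libraries, 1 library each. Vertical lines are exact 95% Poisson intervals, and open triangles mark 0 counts, drawn at the level of 3 counts. Liver is the highest library for every member except C7, which reached 2520 CPM in oWAT.

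The pore-forming end of the cascade was hepatic apart from C7. C9, the subunit that polymerises into the pore, had 1398 counts in liver (3195 CPM, 95% interval 3030 to 3367) and 0 in oWAT, sWAT and muscle. Its liver level was at least 423-fold that of oWAT, 409-fold that of sWAT and 468-fold that of muscle, as ratios to the level of 3 counts. C8A and C8B encode the alpha and beta chains of C8, the component that first penetrates the membrane. C8B had 704 counts in liver (1609 CPM, 1492 to 1732) and C8A had 389 (889 CPM, 803 to 982), and both had 0 in each of the other 3 libraries. C8B was at least 213-fold higher in liver than in oWAT, 206-fold than in sWAT and 236-fold than in muscle, and C8A at least 118-fold, 114-fold and 130-fold. Thus none of these 3 subunits was detected outside liver at this depth. The other 3 libraries hold 1220565 counts in all, so the floor of 3 counts is a pooled level of 2.46 CPM.

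C6, which binds C5b and prepares the complex for C7, had 610 counts in liver (1394 CPM, 1286 to 1509), 1 in oWAT, 2 in sWAT and 0 in muscle. The liver level was 553-fold that of oWAT, with an interval from 98.9 to 21883 that reflects the single oWAT count. It was 268-fold that of sWAT (73.8 to 2214) and at least 204-fold that of muscle. C5, the source of the anaphylatoxin C5a and of C5b, had 664 counts in liver (1517 CPM, 1404 to 1637), 2 in oWAT, 16 in sWAT and 6 in muscle. Liver held 96.2% of the CPM of C5 summed over the 4 libraries, and 99.4% of that of C6. C5 was 301-fold higher in liver than in oWAT (83.0 to 2491), 36.4-fold than in sWAT (22.3 to 64.1) and 111-fold than in muscle (50.8 to 304).

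In the lectin route and its control, MBL2 and C4BPA were hepatic. MBL2, which encodes mannose-binding lectin, had 153 counts in liver (350 CPM, 296 to 410) and 0 in the other 3 libraries. It was at least 46.2-fold higher in liver than in oWAT, 44.7-fold than in sWAT and 51.3-fold than in muscle. C4BPA encodes the alpha chain of C4b-binding protein, which restrains the classical and lectin convertases. It had 504 counts in liver (1152 CPM, 1053 to 1257), 6 in oWAT and 0 in sWAT and muscle, so that liver held 98.7% of its summed CPM. The liver level was 76.2-fold that of oWAT (34.8 to 208), at least 147-fold that of sWAT and at least 169-fold that of muscle. The 6 oWAT counts of C4BPA stood beside 4 counts for all 10 hepatocyte markers there, of which 1 was ALB (albumin), a gene with 61515 counts in liver. The source of the C4BPA counts in oWAT was not tested.

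With C8A, C8B, C9 and MBL2, 4 of the 9 members called in liver (44.4%) had 0 counts in the other 3 libraries. Among all 533 genes called in liver, 198 did (37.1%).

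**Figure D2:**
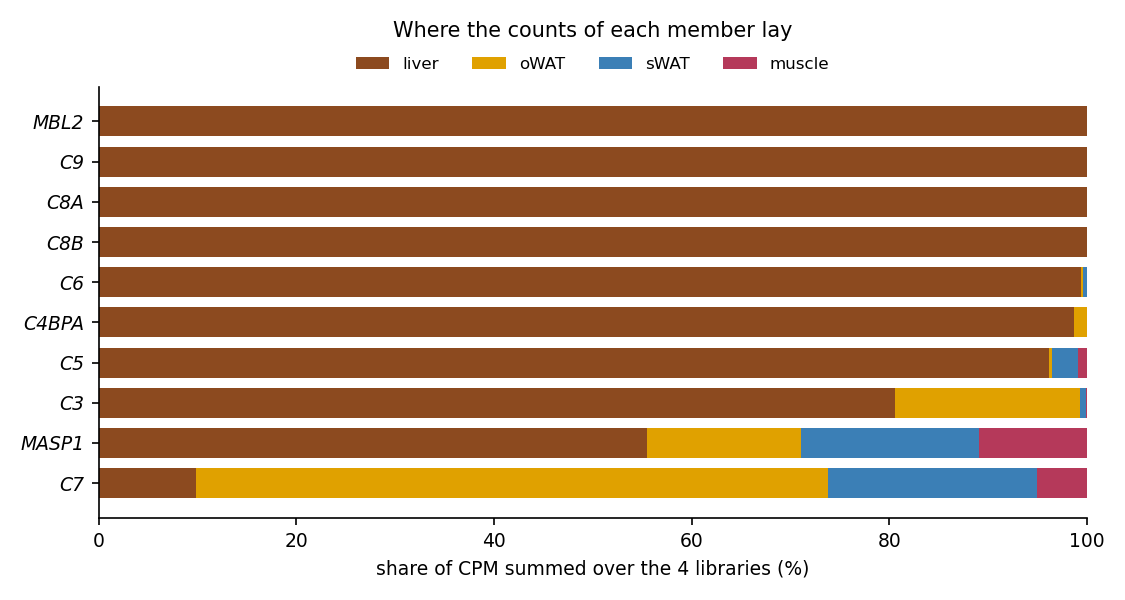
Share of each member's CPM, summed over the 4 libraries, that lay in liver, oWAT, sWAT and muscle (percent, 1 bar per gene, 1 library per tissue). For 7 genes liver held over 95 percent, for C3 it held 80.6%, for MASP1 55.5% and for C7 9.81%.

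C3 joined a high liver level to a high level in oWAT alone of the other libraries. It had 4997 counts in liver (11419 CPM, 11105 to 11740), 1050 in oWAT (2646 CPM, 2489 to 2811), 32 in sWAT (83.4 CPM, 57.0 to 118) and 6 in muscle (13.6 CPM, 5.01 to 29.7). No intervals of these 4 levels overlapped. Liver was 4.31-fold above oWAT (4.04 to 4.62), 137-fold above sWAT (96.9 to 201) and 837-fold above muscle (384 to 2282). The gap to oWAT depends on the scaling: it was 8.66-fold with trimmed mean of M-values (TMM) factors and 8.57-fold with DESeq2 size factors. Hepatocyte markers were close to absent from oWAT, with 7 of 10 at 0 counts, APOB and CPS1 among them, beside the 1050 counts of C3. The source of the C3 counts in oWAT was not tested.

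MASP1 was the member spread most evenly. The gene encodes serine proteases of the lectin route, and alternative splicing of it is known in human to give the proteases MASP-1 and MASP-3, which gene counts do not separate. It had 299 counts in liver (683 CPM, 608 to 765), 76 in oWAT (192 CPM, 151 to 240), 85 in sWAT (221 CPM, 177 to 274) and 59 in muscle (134 CPM, 102 to 173). The liver interval lay above the other 3. The oWAT interval overlapped those of sWAT and muscle, while the sWAT interval lay just above that of muscle. Liver was 3.57-fold above oWAT (2.77 to 4.65), 3.09-fold above sWAT (2.42 to 3.98) and 5.09-fold above muscle (3.84 to 6.86). MASP1 was the 1 member of the 9 whose liver call was lost when the interval had to lie above 4.

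**Figure D3:**
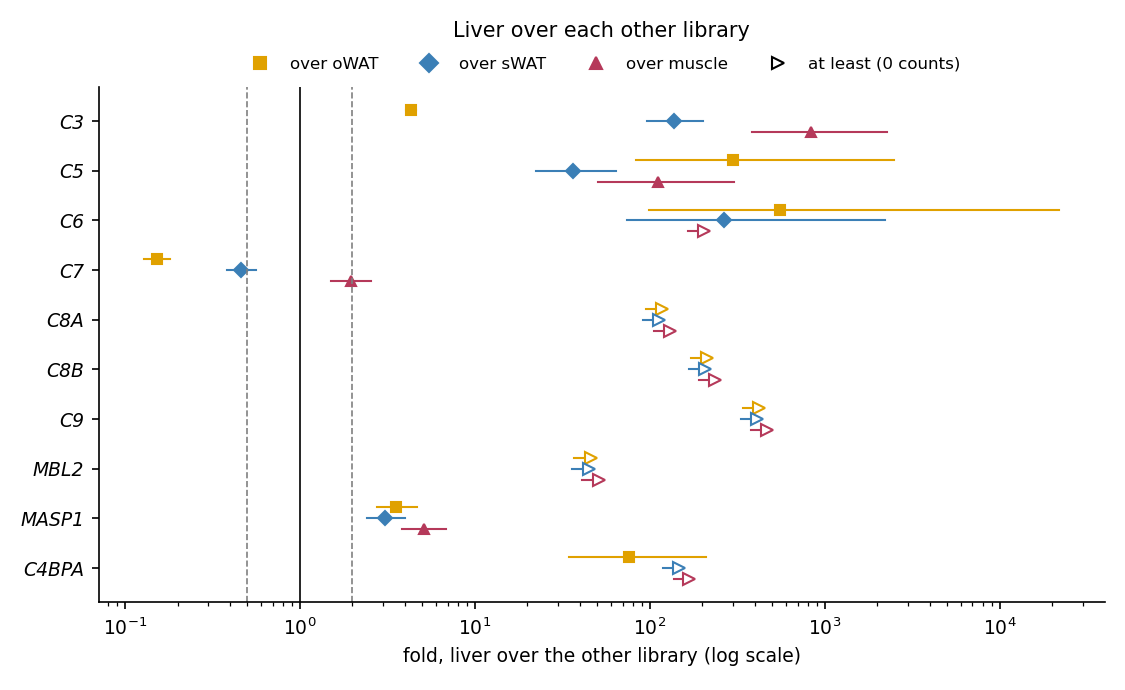
Fold of the liver level over the oWAT, sWAT and muscle levels for each member (log scale), with exact 95% intervals as lines. Open arrowheads are "at least" folds against 0 counts, with the line starting at the exact lower bound; dashed lines mark folds of 0.5 and 2. C7 lies left of 1 over oWAT and sWAT, and the other 9 genes lie right of the upper dashed line throughout.

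C7 ran against the rest of the terminal pathway. It encodes the subunit that anchors the growing complex in the membrane. C7 had 169 counts in liver (386 CPM, 330 to 449), 1000 in oWAT (2520 CPM, 2366 to 2681), 320 in sWAT (834 CPM, 745 to 930) and 87 in muscle (198 CPM, 158 to 244). No intervals of the 4 levels overlapped, with oWAT the highest, then sWAT, liver and muscle. The liver level was 0.153 times that of oWAT (0.129 to 0.181), which passed the rule as lower in liver. As background, 25.8% of all genes tested were called higher in oWAT than in liver. The liver level was 0.463 times that of sWAT (0.382 to 0.560), short of the rule. No member was therefore called higher in both fat libraries than in liver, a call made for 20.9% of all 5520 genes tested.

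The order of the 4 C7 levels was the same under each scaling tried, but the size of the liver ratios depends on it. With TMM factors the liver level of C7 became 0.308 times that of oWAT (0.260 to 0.362), 0.838 times that of sWAT (0.692 to 1.01) and 2.65 times that of muscle (2.04 to 3.48). With DESeq2 size factors it was 0.809 times that of sWAT (0.668 to 0.978). The liver-over-muscle ratio was 1.95 (1.499 to 2.56) on library totals and was called with TMM factors and with DESeq2 size factors. The difference from oWAT was called under both.

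Between the fat libraries, C3 and C7 were the members that differed. C3 was 31.7-fold higher in oWAT than in sWAT (22.3 to 46.7) and C7 was 3.02-fold higher (2.66 to 3.44). These are 2 of the 3 members with at least 10 counts in oWAT, where 1.43% of all 6563 genes tested were called higher in oWAT. Ordered by the lower bound of the interval, C3 stood in place 5 and C7 in place 59 among those genes. MASP1 was the third such member, and oWAT had 0.865 times its sWAT level (0.626 to 1.19). In the other direction 0 of 4 members were called, against 0.767% of all genes tested. C5 came nearest, with 2 counts in oWAT and 16 in sWAT, a ratio of 0.121 (0.0135 to 0.514). It was called lower in oWAT with 4 other choices of library scaling, so its call turns on the choice of scaling. Over all genes the split of calls moved too: 94 were higher in oWAT and 46 in sWAT on library totals, 80 and 70 with TMM factors, and 74 and 82 with DESeq2 size factors.

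Cell type markers also differed between the fat libraries, some lists summing higher in oWAT and others higher in sWAT. Of 10 mesothelium markers, 9 had counts in oWAT, with a summed level of 4284 CPM, and 1 had counts in sWAT, with 5.21 CPM. WT1, which encodes a mesothelial transcription factor, reached 277 counts in oWAT against 0 in sWAT, and MSLN (mesothelin), UPK3B and LRRN4 were also at 0 in sWAT. Macrophage markers summed to 1832 CPM in oWAT and 1300 in sWAT, with 10 of 10 present in each. They were mixed in direction: of 9 with at least 10 counts over the pair, 6 were higher in oWAT. CD163 went the other way, with 33 counts in oWAT and 62 in sWAT. Fibroblast markers summed to 21595 CPM in oWAT and 66620 in sWAT, of which the collagens COL1A1 and COL3A1 made up 15260 in oWAT and 60800 in sWAT. The other 8 fibroblast markers summed to 6336 CPM in oWAT and 5819 in sWAT; FBLN1 was called higher in oWAT (3.09-fold, 2.59 to 3.70) and MFAP5 lower (1 count in oWAT, 26 in sWAT). Endothelium markers summed to 2399 CPM in oWAT and 4230 in sWAT, and smooth muscle and pericyte markers to 1568 CPM in oWAT and 2360 in sWAT. Adipocyte markers summed to 15998 CPM in oWAT and 18867 in sWAT, with all 10 present in each. The part of these cells in the C3 and C7 results was not tested. In bulk RNA, more cells of a type and more RNA per cell cannot be told apart.

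**Figure D4:**
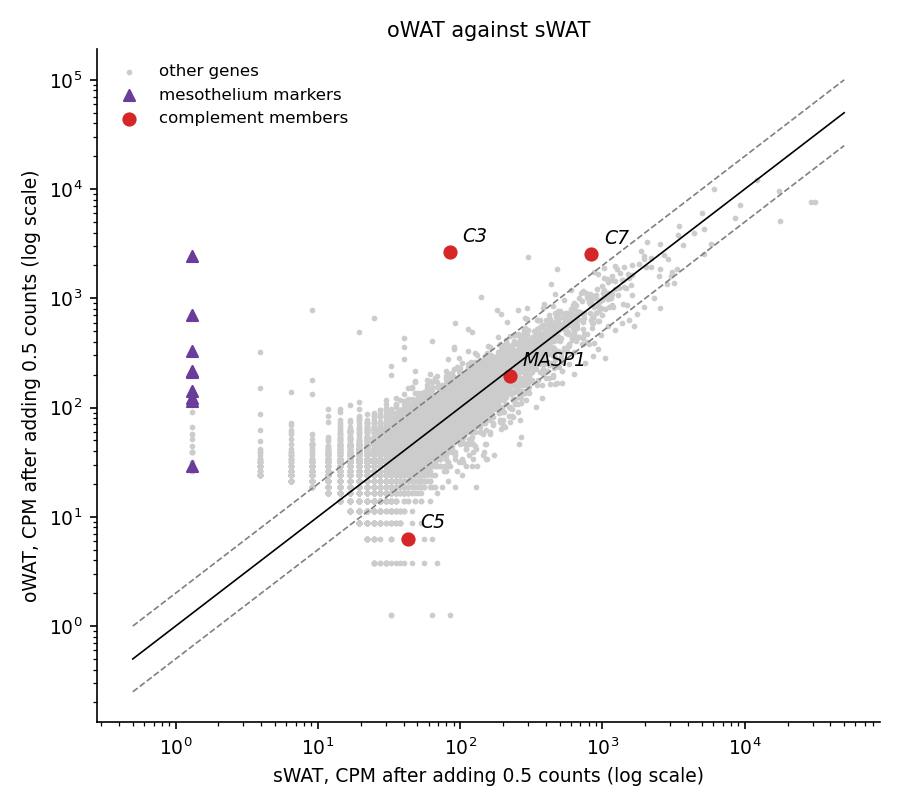
Level in oWAT against level in sWAT, in CPM after adding 0.5 counts (log scales), for genes with at least 10 counts over the pair of libraries. Members are red circles, mesothelium markers purple triangles and other genes grey; the solid line marks equal levels and the dashed lines folds of 2. C3 lies far above the line, C7 above it, MASP1 near it and C5 below it.

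Against muscle, C3 and C7 were also the members called higher in both fat libraries, 2 of the 3 tested, where 7.05% of all 5520 genes tested were called. C3 was 194-fold higher in oWAT than in muscle (88.8 to 530) and 6.11-fold higher in sWAT than in muscle (2.52 to 17.9). The sWAT call for C3 rests on 32 against 6 counts and was lost with TMM factors (4.59-fold, 1.89 to 13.4) and with DESeq2 size factors (4.75-fold, 1.96 to 13.9). C7 was 12.7-fold higher in oWAT (10.2 to 16.05) and 4.21-fold higher in sWAT (3.32 to 5.405) than in muscle, and both were called with either scaling. MASP1 was 1.43-fold its muscle level in oWAT (1.003 to 2.04) and 1.65-fold in sWAT (1.17 to 2.34), and neither was called. With TMM factors the MASP1 ratio of oWAT to muscle lay on the other side of 1, at 0.966 (0.679 to 1.38).

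The rest of the pathway was described with a list of 44 other complement genes, of which 27 had counts, 22 of them at least 10 in some library; the other 17 names were not analysed here. Among 17 tested in liver, 8 passed the rule against every other library (background 10.8%): MASP2, COLEC10, C8G, C4BPB, CLU, CPN1, CFHR4 and CFHR5. The partners of the hepatic members were among them. C8G, the gamma chain of C8, had 13 counts in liver and 0 elsewhere, and C4BPB, the beta chain of C4b-binding protein, had 17 and 0 elsewhere. These 2 low counts passed narrowly: both calls were lost with a minimum of 20 counts or a bound of 4, and that of C8G with a 99% interval. MASP2, the protease that cleaves C4 and C2 in the lectin route, had 153 counts in liver and 0 elsewhere, at least 44.7-fold above sWAT. CFHR5, a factor H-related protein, had 207 counts in liver and 0 elsewhere, and CFHR4 had 118 and 0. The factor H-related genes resemble each other closely in sequence, so the split of counts among them is uncertain where reads could match several.

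Other pathway genes were higher outside liver. Of 13 with at least 10 counts in both fat libraries, 6 were higher in both than in liver (background 20.9%): CFD, COLEC12, CD55, CD59, ITGAM and ITGAX. CFD, which encodes the adipocyte protease factor D (adipsin), had 0 counts in liver, 23 in oWAT, 53 in sWAT and 4 in muscle. ITGAX, a chain of complement receptor 4, had 4 counts in liver, 171 in oWAT, 132 in sWAT and 3 in muscle. CD55 and CD59 protect host cells from complement. CD55 was 0.254 times its oWAT level in liver (0.136 to 0.449) and CD59 0.173 times (0.0848 to 0.323). The calls for CD55, CD59 and ITGAM were lost with TMM factors and with DESeq2 size factors, while CFD, COLEC12 and ITGAX kept theirs against liver.

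Against muscle, 4 of the same 13 genes were higher in both fat libraries (background 7.05%): C1QC, CFD, ITGAX and ITGB2. CFD lost this call with TMM factors (oWAT over muscle 4.31-fold, 1.47 to 17.2) and with DESeq2 size factors (4.36-fold, 1.49 to 17.3), and the other 3 kept theirs. The initiator subunit C1QC had 16 counts in liver, 39 in oWAT, 29 in sWAT and 3 in muscle. Between the fat libraries, 1 of 14 other genes with at least 10 oWAT counts was called higher in oWAT (background 1.43%). It was CLU (clusterin, an inhibitor of the terminal complex), at 2.90-fold (2.25 to 3.78). That call was lost with DESeq2 size factors (2.55-fold, 1.98 to 3.33). SERPING1, the C1 inhibitor that also blocks MASP proteases, was 2.36-fold higher in oWAT than in sWAT (1.98 to 2.82) without passing the rule. It was 1.19 times its oWAT level in liver (1.05 to 1.35), with 573 counts in liver and 436 in oWAT. With TMM factors that ratio was 2.39 (2.11 to 2.72) and with DESeq2 size factors 2.37 (2.08 to 2.69), and SERPING1 was then called higher in liver than in each other library. The median log2 ratio of the other complement genes was -0.62 for liver over oWAT (23 genes), 0.17 for liver over sWAT (23 genes) and 2.28 for liver over muscle (20 genes), beside -0.93, -0.72 and -0.50 for all genes tested. The first of these changed sign with TMM factors (0.38) and DESeq2 size factors (0.37), and the second without a filter on low counts (-1.03). For oWAT over sWAT it was 0.44 (16 genes), beside 0.16 for all genes tested.

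**Figure D5:**
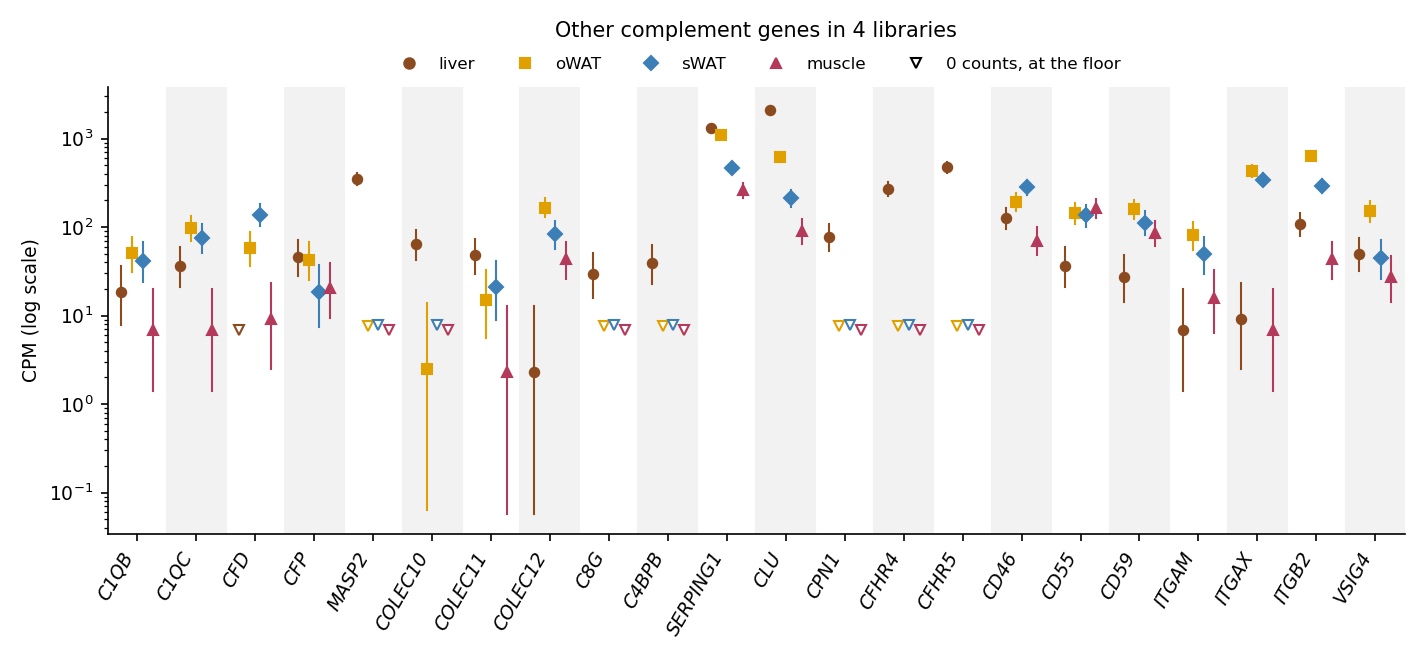
Level in CPM (log scale) of the 22 other complement genes with at least 10 counts in some library, in the liver, oWAT, sWAT and muscle libraries. Lines are exact 95% Poisson intervals and open triangles 0 counts, drawn at the level of 3 counts. MASP2, C8G, C4BPB, CPN1, CFHR4 and CFHR5 have counts in liver alone, and CFD has none in liver.

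Genes with the most similar pattern were sought for the 3 members with under 95% of their summed CPM in liver, among 5381 other named genes with at least 50 counts. Likeness was the total variation distance between the shares of summed CPM over the 4 libraries, from 0 for equal shares to 1. For C7 the nearest were PTK2B (0.0136), SEMA4A (0.0431), PLEK (0.0432), SERF2 (0.0512) and ITGB2 (0.0596). For C3 they were SORL1 (0.0540), EPS8L2 (0.0630), SLC25A22 (0.0715), EPHX2 (0.0750) and AFMID (0.0811), and for MASP1 they were FST (0.0212), WDFY2 (0.0231), GGH (0.0307), PON2 (0.0347) and MTMR4 (0.0351). The best match, PTK2B, had 13 counts in liver, 71 in oWAT, 22 in sWAT and 7 in muscle, so its shares are far less precise than those of C7. No gene came within 0.05 of C3. A likeness over 4 libraries is a description and carries no statement on shared control.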

How the data were processed

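Full-length RNA libraries of liver, oWAT, sWAT and muscle, 1 per tissue, were used. The values are raw counts for each gene as the authors deposited them, with no normalization, and a gene that a file does not list was taken as 0. Alignment used minimap2 2.24, per the submitters' processing notes. The genome build, annotation, read filters, strand use and treatment of shared reads were not given in the sources used here. Counts that name no gene (19.2% of the file in liver, 19.5% in oWAT, 16.6% in sWAT and 14.3% in muscle) were left out of the totals. No table column was left unmapped.

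Folds are ratios of CPM with exact 95% Clopper-Pearson intervals from the binomial split of the pair. A gene was called with 10 or more counts in the higher library and an interval wholly beyond 2-fold. Folds against 0 counts use 3 counts and are written "at least"; they are not interval bounds (for C9 over sWAT the exact lower bound is 332). With 1 library per tissue no p-value was computed. List medians use log2 ratios after adding 0.5 counts, over genes with at least 10 counts in the pair.

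The text names all members, the 5 nearest patterns of C3, C7 and MASP1, and up to 4 markers per cell type. Other complement genes named in the text have at least 10 counts in a library, but not every such gene is named. C1QB, CFP, COLEC11, CD46 and VSIG4 also reached 10 counts and are shown by name only in the plot of other complement gene levels. The members and lists were chosen with earlier results of these data known. Genes lying near C7 were named by position, after their values were seen. All 10 member symbols matched RefSeq T2T-MFA8v1.1, whose coordinates are not reported because the build of the counts is not given. No sequences were used here.

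Alternatives were edgeR 4.0.16 TMM factors, DESeq2 1.42.0 size factors (R 4.3.3; both for scaling only), other totals, minimum counts, interval levels and bounds, pseudocounts, no filter, and thinning to the smallest library. TMM factors were 0.671 in liver, 1.35 in oWAT, 1.21 in sWAT and 0.911 in muscle, and they moved all log2 ratios of liver over oWAT by 1.01. Other work used Python 3.11.15, NumPy 2.4.6, pandas 2.3.3, SciPy 1.17.1 and matplotlib 3.10.9.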

Additional observations from a re-analysis of the deposited data

How the results depend on the processing

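The 9 members called in liver were the same 9 genes under every alternative tried except a bound of 4, which left 8 without MASP1. The members called higher in both fat libraries than in muscle were 2 on library totals, 1 (C7) with TMM factors, 1 (C7) with DESeq2 size factors and 0 with a bound of 4. A bound of 1 added MASP1 to them. Between oWAT and sWAT 2 were called, and 1 (C3) with a bound of 4. C5 was added, as lower in oWAT, with each other scaling and with a bound of 1. Against liver 0 were called in both fat libraries, and 1 (C7) with a bound of 1. Of 44 member folds, 3 calls changed with TMM factors and 3 with DESeq2 size factors (C3 in sWAT over muscle, C5 in oWAT over sWAT, C7 in liver over muscle), and none reversed. Over all genes, calls in both fat libraries over liver numbered 1154 and became 491 and 501 with the 2 scalings, and those over muscle numbered 389 and became 165 and 174. Bounds of 1 and 4 gave 2610 and 470 over liver, 1702 and 80 over muscle, 1598 and 36 in place of 140 between oWAT and sWAT, and 838 and 355 in place of 533 in liver. A 99% interval gave 92 between oWAT and sWAT and 251 over muscle. For other complement genes, the 8 called in liver became 9 with TMM and DESeq2 factors (SERPING1 added), 7 with a 99% interval, 6 with a minimum of 20 counts and 5 with a bound of 4 (C8G, C4BPB and CLU lost), and the 6 called over liver became 3 with TMM factors, DESeq2 size factors, totals without the most abundant genes, the 99% interval and a bound of 4. Of the calls between liver and oWAT, 27.4% were higher in liver on library totals, 60.9% with TMM factors and 60.4% with DESeq2 size factors. Between oWAT and muscle, 60.9% of calls were higher in oWAT, 31.7% with TMM factors and 32.6% with DESeq2 size factors. No paired analysis was possible because each tissue had 1 library, and for that reason no library was left out. Depth limits the fat and muscle values of C5, C6 and C4BPA, which rest on 16 counts or fewer.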

Other observations

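In the RefSeq gene order of T2T-MFA8v1.1, C8A and C8B are direct neighbours, with 0 protein-coding genes between them, and both had counts in liver alone. C9, C7 and C6 lie on 1 chromosome, with 6 protein-coding genes between C9 and C7 and 3 between C7 and C6. C9 and C6 were hepatic, with 1398 and 610 counts in liver against 0 and 1 in oWAT, while C7, which lies between them, had 169 counts in liver and 1000 in oWAT. Genes between C9 and C7 were named after their values were seen. DAB2, an endocytic adaptor, had 14 counts in liver, 291 in oWAT, 216 in sWAT and 91 in muscle, and its liver level was 0.0436 times that of oWAT (exact 95% interval 0.0236 to 0.0744). PTGER4, a receptor for prostaglandin E2, had 2 counts in liver, 34 in oWAT, 24 in sWAT and 15 in muscle. CARD6 and PRKAA1 had 12 and 11 counts in liver against 30 and 28 in oWAT, and neither was called. TTC33 had its highest level in muscle, with 14 counts in liver, 18 in oWAT, 20 in sWAT and 74 in muscle. Its liver level was 0.705 times that of oWAT (0.325 to 1.501). That interval overlapped those of CARD6 (0.169 to 0.730) and PRKAA1 (0.160 to 0.738). DAB2 and PTGER4 were called higher in oWAT than in liver, as were 25.8% of all 6563 genes tested. The median log2 ratio of liver over oWAT was -0.93 for all genes tested. RPL37, which also lies between C9 and C7, had no counts under that name in any library, nor did MROH2B, between C7 and C6. None of DAB2, PTGER4, CARD6, PRKAA1 and TTC33, all of which lie between C9 and C7, was called between oWAT and sWAT. Only 1.99% of all 7040 genes tested were called there in either direction, so no call among so few genes is the usual outcome. This describes neighbours in an annotation that may differ from the one behind the counts, and no statement on shared control follows from it.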
